A study of Homo sapiens with 38 samples.

Results

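Genes for histone acetyltransferases and a coactivator that recruits them were examined for H3K27ac and H3K27me3 peaks in K562 cells. The genes were CREBBP, EP300, KAT2A, KAT2B, KAT5, KAT6A, KAT6B, KAT7, KAT8 and NCOA3, chosen as a named list of 10 of the 20162 protein-coding genes scored. Each gene was scored at every annotated transcript start with 1.5 kb on either side, and over its body, for peaks of both marks in all 38 libraries.

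Histone acetyltransferases transfer acetyl groups to lysines of histone tails and work mostly inside large complexes that bring them to promoters and enhancers. CREBBP (CBP) and EP300 (p300) are the paralogous coactivators known to place most H3K27ac, the mark of active promoters and enhancers profiled here, so these libraries report the product of the enzymes at the enzymes' own genes. H3K27me3, placed on the same lysine by Polycomb repressive complex PRC2, marks silenced or poised genes, and 1 lysine cannot carry both at once.

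The libraries came from CUT&Tag, in which an antibody tethers a transposase that cuts and tags the DNA around a marked nucleosome. All used K562, an established chronic myelogenous leukaemia line with a BCR-ABL1 fusion and erythroid features, so each group was this 1 line. The benchmark set held 6 H3K27ac libraries, with 2 replicates each of Abcam-ab177178 (1:100), Abcam-ab4729 (1:100) and Diagenode C15410196 (1:50), and 2 H3K27me3 libraries of CST 9733 (1:100), all with 15 PCR cycles and SDS extraction. A TSA set held 4 H3K27ac libraries, 1 each of Abcam-ab177178, Abcam-ab4729 and Diagenode at 1:50 and at 1:100, from CUT&Tag run with trichostatin A (TSA), an inhibitor of histone deacetylases, in the assay solutions. The first set, without TSA, held 1 library each of these 4 conditions, of Active Motif 39133 (1:100) and of CST 9733, also with 15 cycles and SDS. A PCR and extraction set held 16 H3K27ac libraries, which crossed 4 antibodies (Active Motif, ab177178, ab4729, Diagenode 1:50) with 13 or 11 PCR cycles and column or SDS extraction, and 4 H3K27me3 libraries in the same 4 conditions.

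Peaks were called in each library on its own, by MACS2 in 18 lists and by SEACR in 38. The benchmark H3K27ac lists held 21317 to 34897 MACS2 peaks and 10930 to 15614 SEACR peaks, the H3K27me3 ones 65638 to 77412 and 83643 to 85248. H3K27ac SEACR lists were shorter in the PCR and extraction set (3797 to 10821 peaks), whose reads the authors had downsampled. Of 10 erythroid marker genes, 8 had an H3K27ac SEACR peak in all 6 benchmark libraries and 0 had an H3K27me3 peak in both, against 1 (DES) and 5 of 12 markers of other tissues. The benchmark replicates were described as biological, with no word on separate cultures in the sources used here. In the mark and antibody fits p-values rest on the spread between replicates of the same antibody, and leave out the spread between antibodies. In the other fits they rest on the spread between libraries that is left after the fitted terms.

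Promoter sequence was taken for 8 of the 10 genes, as 250 bases before and 50 from a RefSeq start (11 starts, RefSeq table on GRCh38, each placed in GRCh37/hg19 by an exact match). A set of 8 short motifs was searched on both strands, and the capitals below mark matches. The first 3 are the RefSeq starts of KAT6B, shown because the only H3K27me3 peaks repeated between libraries lay here. The third of them lay under peaks of both marks.

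KAT6B start 1 (plus strand, chr10:76584763-76585062): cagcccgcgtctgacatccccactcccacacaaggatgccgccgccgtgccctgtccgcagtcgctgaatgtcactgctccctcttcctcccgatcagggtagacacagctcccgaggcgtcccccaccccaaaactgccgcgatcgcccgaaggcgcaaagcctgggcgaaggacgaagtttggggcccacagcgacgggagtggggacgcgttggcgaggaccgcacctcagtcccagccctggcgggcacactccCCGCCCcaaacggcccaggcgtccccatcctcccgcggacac
KAT6B start 2 (plus strand, chr10:76584987-76585286): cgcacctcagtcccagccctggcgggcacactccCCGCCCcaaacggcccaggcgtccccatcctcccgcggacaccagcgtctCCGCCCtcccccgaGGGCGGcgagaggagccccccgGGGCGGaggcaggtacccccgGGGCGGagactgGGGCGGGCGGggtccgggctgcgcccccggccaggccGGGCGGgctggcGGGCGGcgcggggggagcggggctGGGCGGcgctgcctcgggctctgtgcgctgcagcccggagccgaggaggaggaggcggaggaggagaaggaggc
KAT6B start 3 (plus strand, chr10:76586108-76586407): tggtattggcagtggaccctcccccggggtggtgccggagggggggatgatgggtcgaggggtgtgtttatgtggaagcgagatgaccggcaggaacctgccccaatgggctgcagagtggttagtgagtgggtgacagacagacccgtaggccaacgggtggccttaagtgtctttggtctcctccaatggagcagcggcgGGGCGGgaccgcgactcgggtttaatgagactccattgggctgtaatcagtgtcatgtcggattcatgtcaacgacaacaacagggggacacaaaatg

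The KAT6B starts differed in composition. Start 1 had 69.0% GC and 29 CpG, start 2 had 80.7% GC and 35 CpG, and start 3 had 58.7% GC and 15 CpG, against medians of 58.7% and 14 over 35116 promoters. Start 2 carried 10 matches to the SP1 box (GGGCGG or CCGCCC, overlapping matches counted), and starts 1 and 3 carried 1 each. The next 4 are the promoters at the ends of the H3K27ac range, KAT2B and EP300 with SEACR peaks in 6 of 6 benchmark libraries and KAT2A and CREBBP with SEACR peaks in 2 of 6.

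KAT2B (plus strand, chr3:20081688-20081987): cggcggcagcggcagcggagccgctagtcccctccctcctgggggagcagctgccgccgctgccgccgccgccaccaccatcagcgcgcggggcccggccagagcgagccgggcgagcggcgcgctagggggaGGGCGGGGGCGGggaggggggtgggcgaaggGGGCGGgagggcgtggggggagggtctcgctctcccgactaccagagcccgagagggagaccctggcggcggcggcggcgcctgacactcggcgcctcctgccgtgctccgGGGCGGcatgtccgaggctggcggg
EP300 (plus strand, chr22:41488346-41488645): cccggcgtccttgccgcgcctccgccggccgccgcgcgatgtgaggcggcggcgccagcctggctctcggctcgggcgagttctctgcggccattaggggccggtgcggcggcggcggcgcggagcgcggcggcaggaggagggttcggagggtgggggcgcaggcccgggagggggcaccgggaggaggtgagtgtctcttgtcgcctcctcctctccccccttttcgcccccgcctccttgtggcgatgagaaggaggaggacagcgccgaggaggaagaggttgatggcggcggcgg
KAT2A (minus strand, chr17:40273336-40273635): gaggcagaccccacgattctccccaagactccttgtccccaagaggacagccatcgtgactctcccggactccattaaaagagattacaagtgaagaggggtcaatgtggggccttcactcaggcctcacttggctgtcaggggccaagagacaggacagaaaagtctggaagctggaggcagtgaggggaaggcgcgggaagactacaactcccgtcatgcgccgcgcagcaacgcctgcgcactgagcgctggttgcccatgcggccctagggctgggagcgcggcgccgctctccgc
CREBBP outermost start (minus strand, chr16:3930665-3930964): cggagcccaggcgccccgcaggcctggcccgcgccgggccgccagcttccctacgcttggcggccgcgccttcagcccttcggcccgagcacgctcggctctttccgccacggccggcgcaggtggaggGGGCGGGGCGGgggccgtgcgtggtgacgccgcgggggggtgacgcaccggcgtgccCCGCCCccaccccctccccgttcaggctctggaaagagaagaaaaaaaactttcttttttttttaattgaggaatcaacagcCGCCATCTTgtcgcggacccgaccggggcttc

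KAT5 is shown because it held the largest number of different motifs, an E-box (CACGTG), 2 ETS sites (CCGGAAG), a YY1 site (AAGATGGCG) and an SP1 box.

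KAT5 (plus strand, chr11:65479473-65479772): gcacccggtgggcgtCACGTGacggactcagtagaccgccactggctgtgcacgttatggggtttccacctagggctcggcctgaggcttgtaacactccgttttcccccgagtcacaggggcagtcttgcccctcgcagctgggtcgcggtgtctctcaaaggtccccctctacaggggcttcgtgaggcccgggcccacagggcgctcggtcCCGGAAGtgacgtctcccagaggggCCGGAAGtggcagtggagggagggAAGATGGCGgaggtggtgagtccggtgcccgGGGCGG

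GC was 80.3% at KAT2B, 75.3% at EP300, 70.3% at the outermost CREBBP start, 67.3% at KAT5 and 62.0% at KAT2A. The SP1 box was in 7 of the 11 promoters (CREBBP, KAT2B, KAT5 and KAT6B), against 45.0% of all promoters. These 7 include both CREBBP starts and every KAT6B start, so they are not independent genes. The sequences of KAT6B starts 1 and 2 overlap, and the match of start 1 is also counted in start 2. The ETS site was in 2 (KAT5 and KAT7; 10.3% of all), the YY1 site in 2 (CREBBP and KAT5; 1.75%) and the E-box in KAT5 alone (7.26%). The TATA box TATAAA (11.53% of all), the CRE TGACGTCA (1.85%), the NRF1 site (1.24%) and the GATA letters AGATAA (10.3%) were in none of the 11. These are letter matches in a 300-base window and nothing about binding follows from them.

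In the benchmark libraries H3K27ac marked the promoters of nearly all of these genes. By MACS2, 9 of the 10 genes had a promoter peak in 6 of 6 H3K27ac libraries, as did 43.8% of all genes, and KAT2A had one in 5. By SEACR, 7 of the 10 had one in 6 of 6, against 36.7% of all genes. KAT7 had a SEACR peak in 5 libraries, and CREBBP and KAT2A in 2. H3K27me3 was at the promoter of KAT6B alone, in both CST 9733 libraries by both callers, where 26.3% of all genes had one in both by MACS2 and 25.9% by SEACR. The start windows of a gene of the list summed to 9057 bp (NCOA3) to 45134 bp (CREBBP). More starts give more room for a peak. Neither the shares of all genes nor the percentiles below were matched for number of starts.

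**Figure D1:**
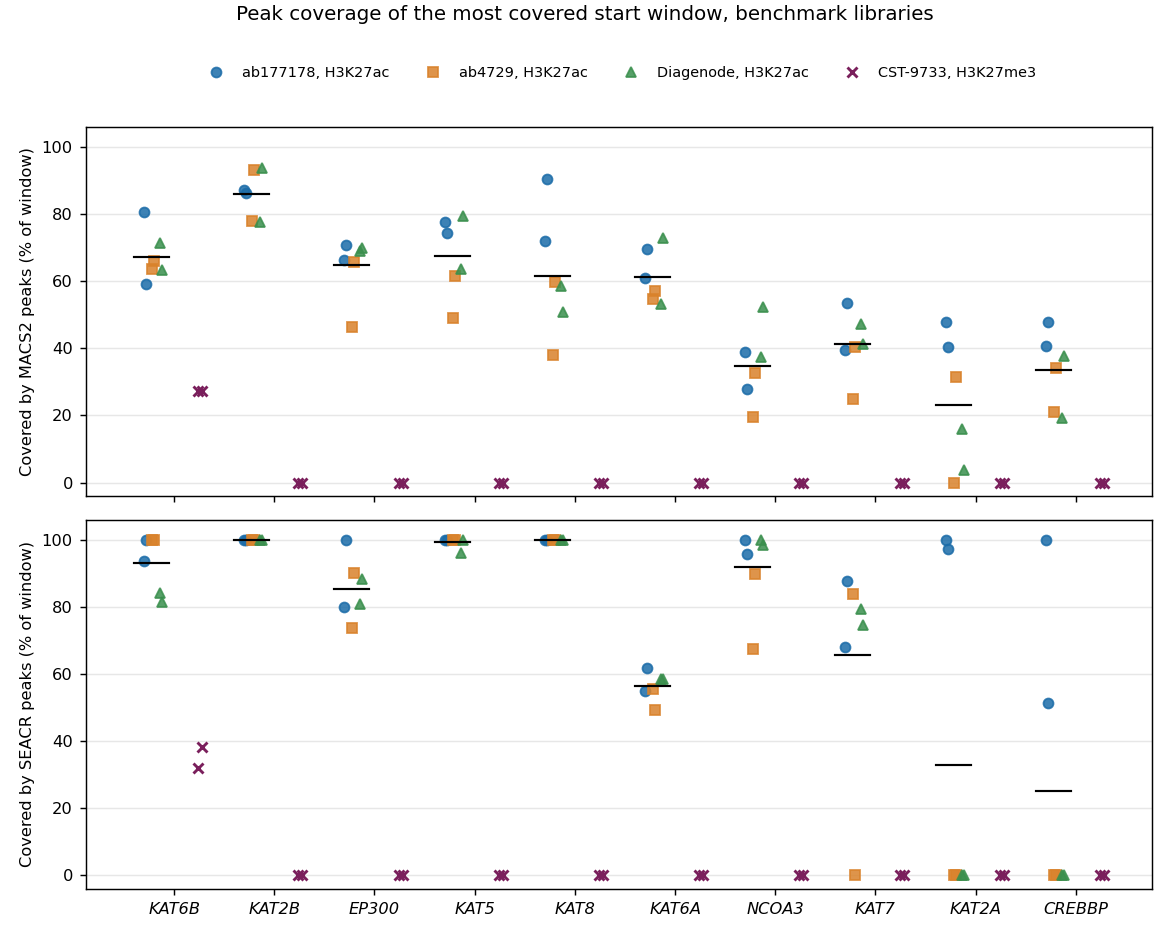
Percent of the most covered transcript start window of each gene (y axis, linear) under MACS2 peaks (top) and SEACR peaks (bottom) in the 8 benchmark libraries, with 1 point per library, genes along the x axis and black bars for the mean of the 6 H3K27ac libraries. H3K27me3 (crosses) was at 0 for 9 genes and above 0 for KAT6B, where it stayed below all 6 H3K27ac libraries.

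The following values give, for each gene, the percent of its most covered start window under MACS2 peaks, and the SEACR signal in the most strongly marked window per kb, with the total signal of each list set to 1000000. Among the coactivators that acetylate H3K27 itself, EP300 and CREBBP stood apart from each other. EP300 (chr22:41488596-41576081, plus strand, 14 starts) had 46.4% to 70.8% of its best window covered (median 67.6%), with the lowest value in ab4729 replicate 1. Its SEACR signal was 12.9 to 27.6 (median 21.4), which put it at the 79.3rd percentile (median) of genes with a peak. Only the outermost of its 9 separate windows was marked. The same window holds the start of MIR1281, 79 bp from an EP300 start.

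CREBBP (chr16:3775055-3930714, minus strand, 20 starts) was covered over 19.3% to 48.0% (median 36.0%) by MACS2 peaks, all in the window of the outermost start. The strongest peak was 578 to 986 bp wide, with its summit at -289 to -121 bp from that start. In 4 of 6 libraries a second peak of 359 to 517 bp followed, with its summit at 881 to 1064 bp. SEACR signal was 6.17 and 7.12 in the 2 ab177178 libraries and 0 in the 4 libraries of ab4729 and Diagenode, so the antibody groups did not overlap. A SEACR pattern of both ab177178 libraries and none of the other 4 was found at 2.9% of all genes. In ab177178 replicate 1 a second SEACR peak, of 4288 bp, covered the window nearest the end of the gene. The strongest MACS2 peak of CREBBP had a median fold enrichment of 13.9, against 32.6 for EP300. The second RefSeq start of CREBBP, 593 bp downstream, had at most 8.00% of its 300 bases under a MACS2 peak.

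KAT2A (GCN5) and KAT2B (PCAF) are paralogs that serve alternately as the catalytic subunit of the SAGA and ATAC complexes. KAT2B (chr3:20081938-20195896, plus strand, 5 starts) had 77.8% to 93.7% of its best window under MACS2 peaks (median 86.7%), the highest mean of the 10 genes, and 100% under SEACR peaks in 6 of 6. Its SEACR signal was 17.1 to 27.9 (median 23.8). The strongest summit lay at -506 to -439 bp from the start, and the 3 downstream windows held no peak.

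KAT2A (chr17:40265129-40273385, minus strand, 5 starts) gave the opposite picture. Its best window was covered over 47.8% and 40.3% in ab177178, 0% and 31.5% in ab4729, and 15.9% and 3.70% in Diagenode. Its SEACR signal was 8.84 and 10.5 in ab177178 and 0 in the other 4 libraries. The 3.70% in Diagenode replicate 2 came from a peak with its summit 8720 bp from the outermost start, past the end of the gene. Peaks that reach the second window of KAT2A in 4 libraries by MACS2 also covered the start of DHX58, and signal of the neighbours could not be told apart there. Leaving that window out, a MACS2 peak lay at the outermost KAT2A start in 4 of 6 libraries. The window of that start also holds the start of HSPB9 on the opposite strand, 1437 bp from a KAT2A start. Of the paralogs, KAT2B was above KAT2A in every one of the 6 libraries in MACS2 coverage of the best window and in SEACR signal. By SEACR coverage of all start windows together KAT2B was at 26.5% in both ab177178 libraries and KAT2A at 51.7% and 50.2%, so the order was turned round there.

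The MYST family members KAT5, KAT6A, KAT6B, KAT7 and KAT8 all had H3K27ac. KAT5 (TIP60), the catalytic subunit of the NuA4-type complex with roles in the DNA damage response (chr11:65479467-65487075, plus strand, 17 starts), had 49.1% to 79.4% of its best window under MACS2 peaks (median 69.1%). Its SEACR signal was 12.6 to 24.7 (median 20.3). The first window was marked in 6 of 6 libraries by both callers and the second, which also holds the start of RNASEH2C at 125 bp, in 4 of 6. In ab177178 replicate 2 SEACR peaks covered all of the KAT5 windows, whereas in Diagenode replicate 1 they covered 31.1%.

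KAT8 (MOF), a histone H4 acetyltransferase of the MSL and NSL complexes (chr16:31125810-31142714, plus strand, 7 distinct starts), was the only gene with all of its windows marked in 6 of 6 libraries by both callers. Its best window was covered over 37.9% to 90.6% (median 59.1%) by MACS2 peaks, and its SEACR signal was 10.8 to 18.4 (median 16.4). The strongest summit lay at 3397 to 3421 bp from the outermost start in 3 libraries and at 14493 to 14494 bp in the other 3. SEACR peaks here were 9402 to 17641 bp long and in 6 of 6 libraries ran on over the start of PRSS8, in 2 of 6 over that of BCKDK.

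KAT7 (HBO1), which acetylates H3 and H4 near replication origins and genes (chr17:47865986-47912388, plus strand), was covered over 25.0% to 53.5% (median 40.8%) at its first window. Its SEACR signal was 8.43 to 10.5 in 5 libraries and 0 in ab4729 replicate 2, which had a MACS2 peak over 40.4% of the window. FAM117A starts 32 bp away on the opposite strand, so the peak could not be assigned to one of them.

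KAT6A (MOZ) and KAT6B (MORF) are paralogs that form complexes with BRPF proteins and are targets of leukaemia fusions. KAT6A (chr8:41786997-41909512, minus strand, 10 distinct starts) had 53.3% to 72.9% of its best window covered (median 59.0%), and a SEACR signal of 7.60 to 14.6 (median 9.78). KAT6B (chr10:76584685-76792382, plus strand, 35 distinct starts) had 59.2% to 80.6% covered (median 64.8%) and the highest mean SEACR signal of the 10 genes, 28.4 ± 4.79 (SD, n = 6), with a range of 20.4 to 33.2. This was the 85.9th to 95.0th percentile of genes with a peak. KAT6B was above KAT6A in SEACR signal in all 6 libraries, while MACS2 coverage of the pair overlapped.

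NCOA3 (SRC-3), a p160 nuclear receptor coactivator that recruits CREBBP and EP300 (chr20:46130631-46285621, plus strand), was covered over 19.5% to 52.2% (median 35.0%) at its first window. Its SEACR signal was 7.16 to 11.9 (median 9.16), and no other start of the gene was marked. Within its body, H3K27ac recurred far downstream of the start, over chr20:46234430-46238101 in 5 of 6 libraries by MACS2 and chr20:46233139-46244322 in 5 of 6 by SEACR. Recurrent peaks away from starts were also in KAT6B at chr10:76614410-76615415 (5 of 6 by MACS2 and 4 of 6 by SEACR) and in KAT6A at chr8:41890676-41892032 (4 of 6 and 2 of 6). None of these 3 MACS2 regions lay within 1.5 kb of another annotated start.

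Ordered by mean SEACR signal per kb on that scale, KAT6B (28.4 ± 4.79) came before KAT2B (23.1 ± 4.92), EP300 (21.4 ± 5.48), KAT5 (19.1 ± 4.49), KAT8 (15.4 ± 2.79), KAT6A (10.4 ± 2.63), NCOA3 (9.38 ± 1.62), KAT7 (7.85 ± 3.93), KAT2A (3.22 ± 5.02) and CREBBP (2.21 ± 3.44; SD, n = 6 each). Only KAT6B from KAT2B and KAT8 from KAT6A were separated by more than the larger SD of the neighbours. All other neighbours in the order lay within it. By MACS2 coverage KAT2B came first (86.0% ± 6.99) and KAT2A last (23.2% ± 19.7), and the genes from KAT5 to KAT6A (KAT5, KAT6B, EP300, KAT8, KAT6A) differed from their neighbours in this order by less than the larger SD.

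The mark comparison asked whether peaks of H3K27ac covered more of the promoter, as the union of all start windows of a gene, than peaks of H3K27me3 did. It used limma with Benjamini-Hochberg adjustment over all genes whose coverage averaged at least 5%. By MACS2, 8 of the 10 genes were tested and 7 were higher in H3K27ac at adjusted p under 0.05, against 64.2% of all genes tested, and 29.8% of those were lower. By SEACR, 9 were tested and 9 were higher, against 59.2%, with 28.6% of all lower. Every tested gene except KAT6B had no H3K27me3 coverage and so passed the filter through its H3K27ac coverage alone. The direction of those genes was thus fixed by the filter, and their number is no support for a difference between marks. CREBBP was under the filter by both callers and EP300 by MACS2, and the calling settings of the marks differed, so mark and setting cannot be told apart.

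For every gene here except KAT6B the H3K27me3 values were all 0%, with no spread, which lowers the SE. Their SEs and p-values are thus no support for a difference between marks and only describe the fit. KAT8 differed most, with 76.9% of its promoter covered in H3K27ac libraries and 0% in H3K27me3 libraries by SEACR (SE 5.64, limma adjusted p = 0.000152). KAT2B was covered over 26.3% in H3K27ac and 0% in H3K27me3 libraries (SE 0.431, limma adjusted p = 5.12e-07). EP300 was covered over 8.36% in H3K27ac and 0% in H3K27me3 libraries (SE 1.10, limma adjusted p = 0.00137), since 1 of its 9 windows was marked. The differences of the other tested genes were 61.7 percentage points for KAT5, 30.7 for NCOA3, 17.0 for KAT2A, 12.7 for KAT7, 10.9 for KAT6B and 9.53 for KAT6A, against a median of 21.7 over all genes tested. KAT2A owed its mean to ab177178 alone, and by MACS2 its 8.87 percentage points had a limma adjusted p of 0.0542. KAT7 passed narrowly by SEACR (limma adjusted p = 0.0464) and lost the call without any 1 library of ab177178, Diagenode or CST 9733 (limma adjusted p from 0.0794 to 0.170). KAT5 lost it without CST 9733 replicate 1 or 2 (limma adjusted p = 0.0561 and 0.0567 by MACS2, 0.0758 and 0.0757 by SEACR). H3K27ac coverage was above H3K27me3 coverage in every library pair for 9 genes by MACS2 and 7 by SEACR, against 41.4% and 35.8% of all genes.

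KAT6B was the one gene of the list with promoter peaks of both marks in the benchmark libraries. The authors describe some residual signal of their H3K27me3 CUT&Tag at promoters. Its part in the KAT6B peaks was not tested. Its promoter was covered over 16.6% and 21.1% in ab177178, 16.1% and 16.8% in ab4729, 13.6% and 12.5% in Diagenode, and 4.77% and 5.67% in the H3K27me3 libraries by SEACR. H3K27ac was higher by 10.9 percentage points (SE 1.32, limma adjusted p = 0.000992), and by 6.08 by MACS2 (SE 1.15, limma adjusted p = 0.00521). Of all genes, 3.1% had H3K27ac in 6 of 6 and H3K27me3 in 2 of 2 benchmark libraries by MACS2 and 2.01% by SEACR.

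**Figure D2:**
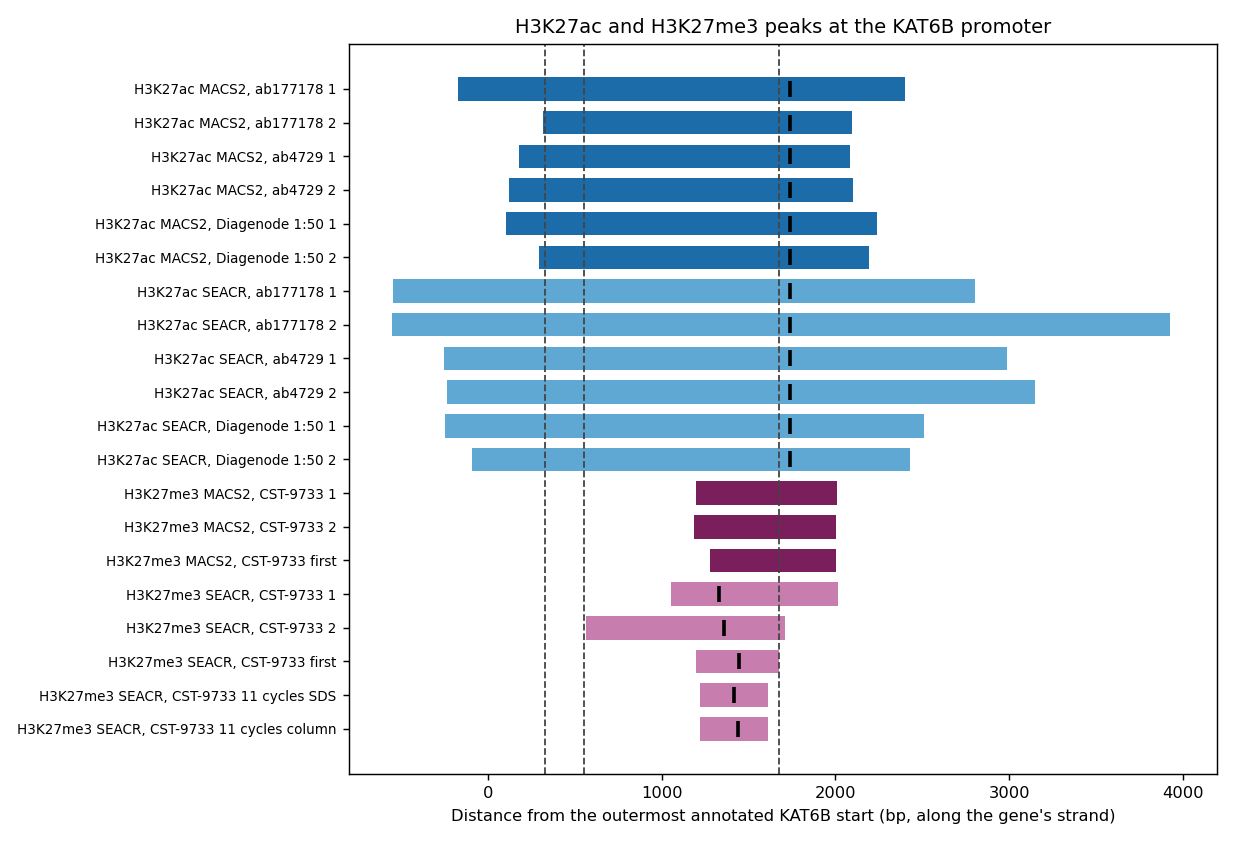
Peaks at the KAT6B promoter by library and caller, with the distance in bp from the outermost annotated start on the x axis, 1 bar per peak (blue H3K27ac, benchmark libraries; purple H3K27me3), black ticks for the summit or signal maximum where the list gives one and dashed lines for the 3 RefSeq starts. Every H3K27me3 peak lay inside the H3K27ac peaks of all 6 benchmark libraries by the same caller, and the H3K27ac maxima stood at 1736 to 1737 bp.

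The H3K27me3 peaks of KAT6B were 394 to 1147 bp wide and lay wholly under the H3K27ac peaks of all 6 benchmark libraries. The MACS2 ones, at 1185 to 2009 bp from the outermost start in the benchmark libraries, had fold enrichments of 4.21 and 3.68, and 5.58 in the first set. Their −log10 q in the benchmark was 3.55 and 2.74, lower than the stated q threshold of 1e-5 would give, and how q was computed for broad peaks was not given in the sources used here. Few H3K27me3 peaks of any list were so placed, 0.166% to 2.05% of them. They covered all 300 printed bases of start 3 by MACS2 in both libraries and 96.3% and 100% by SEACR, at most 12.3% of start 2 and none of start 1. H3K27ac SEACR peaks covered all 3 starts whole in 6 of 6 libraries.

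The H3K27ac summit stood at 1736 or 1737 bp from the outermost KAT6B start in 6 of 6 benchmark libraries, which is 63 or 64 bp downstream of start 3. Among 8837 genes with a MACS2 peak in 6 of 6, the summit of the strongest peak stayed within 1 bp at 30 (0.339%), and the median spread was 428 bp. This measure was looked at after its value at KAT6B had been seen. The other genes of the list spread over 67 bp (KAT2B) to 11097 bp (KAT8). H3K27me3 SEACR maxima at KAT6B were further upstream, with their middles at 1327 and 1358 bp in the benchmark libraries. The largest signal in the peak, not scaled for depth, was 30 to 117 (median 85.5) for H3K27ac and 10 and 9 for H3K27me3.

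Outside the benchmark, H3K27me3 at KAT6B recurred in the first CST 9733 library by both callers and in both 11-cycle libraries, and was in neither 13-cycle one, which makes 5 of 7 SEACR lists (19.05% of all genes had as many). Elsewhere H3K27me3 was sparse on these genes. KAT6A had 1 SEACR peak of 669 bp inside its promoter window, 637 to 1305 bp from the outermost start and under no benchmark H3K27ac SEACR peak, in the 11-cycle column library alone, the library in which 2.05% of peaks lay wholly under H3K27ac. NCOA3 had 1 inside the body 23178 to 24008 bp from the start by SEACR, called in CST 9733 replicate 1 by both callers and not in replicate 2. The other 7 genes had none in any of the 7 libraries.

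The antibody comparison asked whether the 3 H3K27ac antibodies of the benchmark covered these promoters differently, with limma's moderated F test over 6 libraries. By MACS2, 0 of 9 genes tested passed, against 1.33% of all genes, of which 2199 had an unadjusted p under 0.05. KAT2A (limma adjusted p = 0.177) and KAT8 (limma adjusted p = 0.192) had the lowest p of the list, and both were most covered in ab177178. By SEACR, 1 of 9 passed, against 10.5% of all genes.

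That gene was KAT2A, with 51.7% and 50.2% of its promoter under SEACR peaks in ab177178 and 0% in each ab4729 and Diagenode library (difference 51.0 percentage points, SE 1.38, limma adjusted p = 0.000938). It passed the filter through ab177178 alone. The SE came from close values in ab177178 and from 0% wherever no peak was called, so the p-value gives little support. By MACS2 KAT2A had 16.3% and 18.8% in ab177178, 0% and 11.8% in ab4729 and 5.07% and 1.18% in Diagenode. The libraries of ab177178 were thus above the other 4 by both callers. KAT8 had 93.9% and 97.8% in ab177178, 65.7% and 83.9% in ab4729 and 64.6% and 55.3% in Diagenode by SEACR (limma adjusted p = 0.156). ab177178 also had the highest share of all genes with a SEACR peak, 51.0% and 51.3%, against 40.6% to 44.6% in the others. The authors report more unique fragments for both ab177178 benchmark libraries than for any other benchmark H3K27ac library. The part of either in the KAT2A and CREBBP pattern was not tested.

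The other 7 tested genes did not pass by either caller. KAT2B was nearly flat over antibodies by SEACR, at 25.0% to 26.5%, and ab177178 differed from the other antibodies by 0.43 percentage points (SE 1.59). For EP300 that difference was 1.31 (SE 1.65) and for KAT6B 4.10 (SE 1.92).

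**Figure D3:**
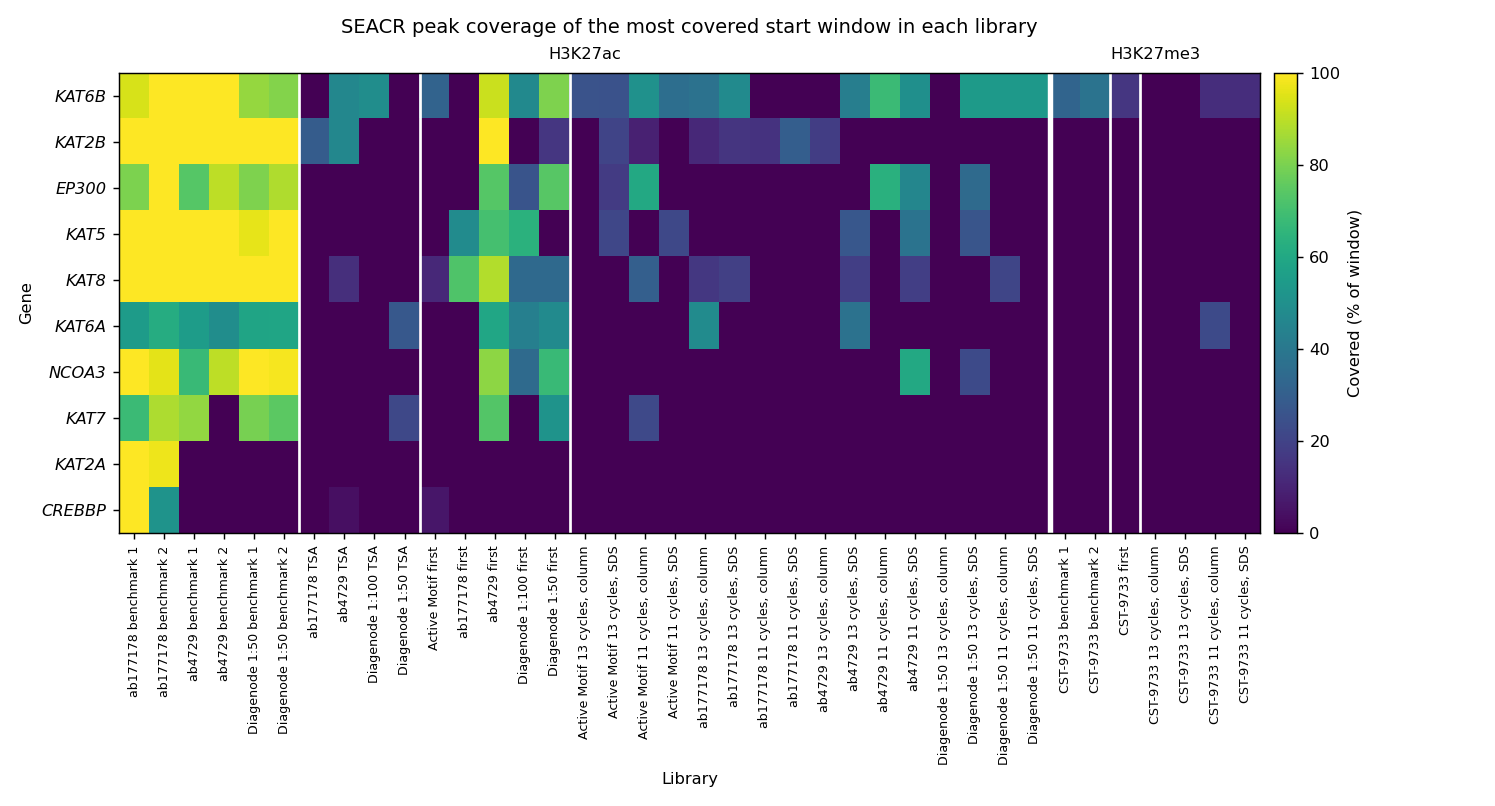
Percent of the most covered start window under SEACR peaks (colour, 0 to 100) for each gene (rows) in each of the 38 libraries (columns, grouped by white lines into benchmark, TSA, first and PCR and extraction, H3K27ac left and H3K27me3 right). KAT6B was marked in 24 of 31 H3K27ac lists and KAT2A in 2.

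Over all 31 H3K27ac SEACR lists the genes were marked unevenly. KAT6B had a promoter peak in 24, KAT8 in 18, KAT2B in 17, EP300 and KAT5 in 14 each, KAT6A in 12, NCOA3 in 11, KAT7 in 9, CREBBP in 4 and KAT2A in 2. As many lists as for KAT6B were reached by 11.1% of all genes and as many as for KAT2A by 55.2%. Over the 15 MACS2 lists KAT6B again had most, 12, and KAT2A fewest, 5, with 7 of the 10 genes between 9 and 11 and CREBBP at 8. CREBBP peaks outside the benchmark were never at the outermost start in SEACR lists, with 1 of 185 bp at 66313 bp into the gene (Active Motif, first set) and 1 of 119 bp at 31218 bp (ab4729 with TSA).

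The TSA comparison set the 4 libraries with TSA against the 4 first libraries of the same antibody and dilution. TSA lists came from downsampled reads and first lists from all reads, so TSA and depth cannot be told apart. By SEACR, 1 of the 10 genes had a peak in ab177178 with TSA against 2 without, 4 against 8 in ab4729, 2 against 7 in Diagenode 1:50 and 1 against 6 in Diagenode 1:100. By MACS2 the counts were 0 against 2, 2 against 8, 3 against 8 and 6 against 6. The numbers were lower with TSA in every pair except Diagenode 1:100 by MACS2. The share of all genes with a MACS2 peak was 4.51% with TSA against 18.8% without in ab177178, 15.2% against 50.6% in ab4729, 13.2% against 42.6% in Diagenode 1:50 and 21.6% against 21.4% in Diagenode 1:100. The share with a SEACR peak was lower with TSA in all 4 pairs, 19.8% against 31.8% in ab177178, 34.6% against 45.2% in ab4729, 20.7% against 39.5% in Diagenode 1:50 and 16.2% against 26.7% in Diagenode 1:100.

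The coverage test took in 5 of the genes by SEACR and 0 by MACS2. It called 0 of the 5, as it called 0 of 7884 genes (0% in either direction, with 2378 at an unadjusted p under 0.05) by SEACR and 0 of 4311 by MACS2 (1195). In simulated data the SEACR fit recovered 0% of shifts of 20 percentage points and 19% of shifts of 40. The absence of calls thus does not show an absence of change. KAT8 was covered over 3.12% in ab4729 with TSA and 0% in the other 3 libraries with TSA, against 22.04% in ab177178, 30.8% in ab4729, 10.7% in Diagenode 1:50 and 16.3% in Diagenode 1:100 without TSA. That is a difference of -19.2 percentage points (SE 4.91, limma adjusted p = 0.151), lower with TSA in 4 of 4 pairs. In the same order of antibodies, KAT5 was at 0% in all 4 with TSA, against 25.9%, 40.5%, 0% and 20.7% without it (-21.8, SE 7.23, limma adjusted p = 0.151). NCOA3 was likewise at 0% in all 4 with TSA, against 0%, 27.5%, 22.4% and 11.47% (-15.4, SE 5.59, limma adjusted p = 0.153). KAT8, KAT5 and NCOA3 passed the filter through the libraries without TSA. The direction of their differences was thus fixed by the filter and is no support for a change with TSA.

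KAT2B and KAT6B had smaller differences. KAT2B was covered over 7.17% in ab177178, 11.3% in ab4729 and 0% in both Diagenode libraries with TSA, against 0%, 26.5% and 3.89% (1:50) and 0% (1:100) without it (-2.99, SE 4.65, limma adjusted p = 0.575). KAT6B was covered over 0%, 6.85%, 0% and 7.29% with TSA in ab177178, ab4729, Diagenode 1:50 and Diagenode 1:100, against 0%, 13.7%, 12.3% and 7.05% without it (-4.73, SE 3.90, limma adjusted p = 0.323). The median over all genes tested was -15.0 percentage points.

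**Figure D4:**
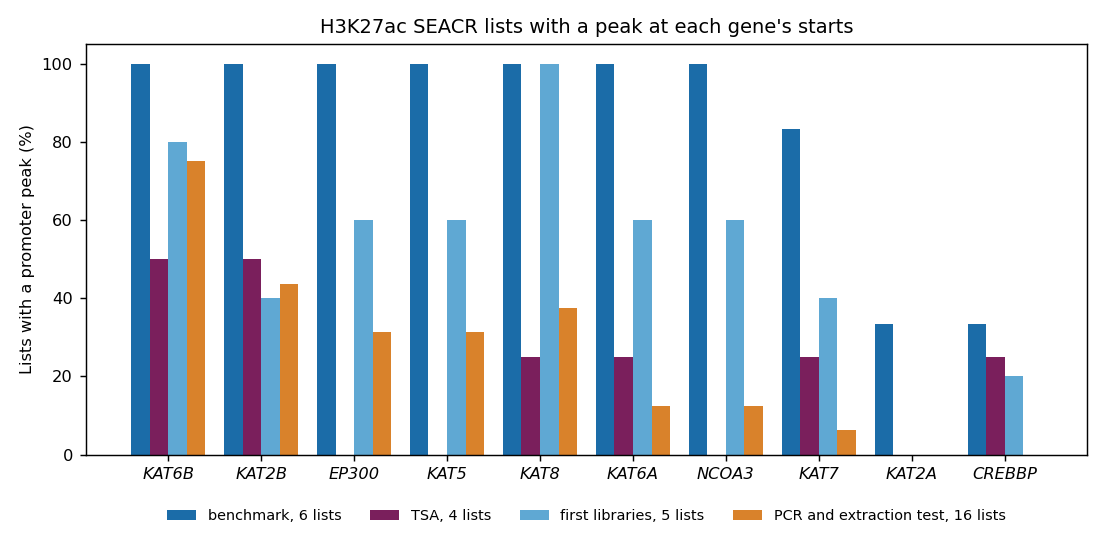
Percent of H3K27ac SEACR lists with a promoter peak (y axis, from 0) for each gene in the 6 benchmark, 4 TSA, 5 first and 16 PCR and extraction lists. KAT6B stood at 75.0% in the PCR and extraction set, and KAT2A was above 0 in the benchmark lists only.

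The PCR and extraction set asked whether cycle number, extraction and antibody changed peaks when libraries were brought to the same number of reads, which leaves unique fragments free to differ. KAT6B had a promoter peak in 12 of 16 H3K27ac lists, a number that 9.24% of all genes reached or passed. KAT2B followed with 7, KAT8 with 6, EP300 and KAT5 with 5 each, KAT6A and NCOA3 with 2 each and KAT7 with 1, and CREBBP and KAT2A had none. In all, 21 of 80 gene and library pairs had a peak at 13 cycles against 19 of 80 at 11, and 16 of 80 with column against 24 of 80 with SDS extraction. Of all genes, 18.8% had a peak at 13 cycles against 20.8% at 11, and 19.6% with column against 20.1% with SDS extraction.

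KAT6B alone passed the filter for the test. Its best window was covered over 0% to 54.4% (median 31.6%) at 13 cycles against 0% to 68.2% (median 50.2%) at 11, and the ranges overlapped. Its promoter coverage differed by -1.45 percentage points between 13 and 11 cycles (SE 2.198, limma adjusted p = 0.974) and by -1.37 between column and SDS extraction (SE 2.198, limma adjusted p = 0.999). Active Motif minus the other antibodies gave 0.061 (SE 2.54, limma adjusted p = 0.994). Calls over all 4447 genes were 0% for cycles and for extraction (281 and 137 genes at an unadjusted p under 0.05), and for the antibody 0.0225% higher and 0.0675% lower (465).

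Some genes were marked under part of the conditions only. KAT5 had a peak in 0 of 8 column libraries and 5 of 8 SDS libraries, where 0.0198% of all genes had none with column and at least 5 with SDS. KAT2B had one in 4 of 4 ab177178, 2 of 4 Active Motif, 1 of 4 ab4729 and 0 of 4 Diagenode libraries, and 0.228% of all genes had 4 of 4 in ab177178 and none in Diagenode. The strongest KAT2B peak of each ab177178 library ended at -1159 to -1031 bp from the start, upstream of the benchmark summits (-506 to -439 bp). Those of ab4729 and of Active Motif with column extraction ended at -961 and -1221 bp. Only that of Active Motif with SDS lay nearer, at -737 to -123 bp. These KAT2B counts thus describe the window more than the start itself. EP300 had a peak in 2 of 4 Active Motif and 0 of 4 ab177178 libraries, and 1.87% of all genes had at least 2 and none. Over all genes the share with a peak was 16.6% in Active Motif, 17.6% in Diagenode, 22.3% in ab177178 and 22.9% in ab4729 libraries. These counts were picked out among 10 genes after they had been seen and were under the filter for a test. The mark test in this set also took in 0 of the 10 genes, where 39.6% of all genes tested were higher and 25.8% lower in H3K27ac.

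Genes for proteins that work with these enzymes were marked in similar shares. Of 59 genes for SAGA, ATAC, NuA4, MOZ, MORF, HBO1, MSL and NSL subunits and other acetyltransferases, 43 had H3K27ac in 6 of 6 benchmark libraries by both callers, against 7 of the 10 genes of the list and 7252 of all 20162. The count was 13 of 15 for the TIP60 (NuA4) complex of KAT5, including BRD8, its bromodomain subunit, and ACTL6A, an actin-related one. It was 12 of 19 for SAGA and ATAC, including ATXN7 and ATXN7L3 of the deubiquitinase module. It was 6 of 8 for the BRPF, JADE and ING subunits of the KAT6A, KAT6B and KAT7 complexes, including BRPF1 and BRD1, which bind KAT6A and KAT7. It was 7 of 11 for the MSL and NSL complexes of KAT8, including KANSL1 and KANSL2, and 5 of 6 for the remaining enzymes and p160 coactivators, including CLOCK and GTF3C4.

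H3K27me3 was in both libraries by both callers at 3 of the 59, EPC2 and MORF4L1 of the NuA4 complex and JADE3, against 1 of the 10 genes of the list (KAT6B) and 5010 of all 20162. EPC2 and MORF4L1 had H3K27ac in 6 of 6 too. JADE3 had no H3K27ac SEACR peak in any benchmark library, which among the 59 was otherwise so only for SGF29, a SAGA subunit that reads H3 methylation, and was so for 9255 of all 20162 genes.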

How the data were processed

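CUT&Tag peak lists of 38 K562 libraries (56 lists, hg19) were analysed as deposited. Per the submitters' notes and methods, the authors used Trim Galore 0.6.6 for trimming, Bowtie2 2.2.9 for alignment, Picard 2.6.0 to drop duplicate reads, and SAMtools 1.3.1 and bedtools 2.25.0. They called peaks in each library without a control and without pooling replicates. MACS2 ran at q 1e-5, narrow for H3K27ac and broad for H3K27me3, and SEACR kept the top 0.01 (H3K27ac) or 0.1 (H3K27me3) of regions. The authors made the TSA and the PCR and extraction lists from randomly downsampled reads, and the first and benchmark lists without downsampling. The deposited MACS2 lists give a score, a fold enrichment over background, −log10 p and −log10 q. In the broad H3K27me3 lists −log10 q goes down to 1.22, under the stated threshold, and how it was computed was not given in the sources used here. The deposited SEACR lists give the signal summed over each peak and its largest value. The lists hold no read counts, so only peak numbers are given. The authors report total and unique fragments of each library, and these were not used in the fits.

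Genes and transcript starts came from the GENCODE 44 annotation of GRCh37. The value tested was the percent of a gene's start windows (the union of 1.5 kb on either side of each start) under peaks, over 20162 protein-coding genes on chromosomes 1 to 22, X and Y. Genes with a mean under 5% in a comparison were left out. limma 3.58.1 in R 4.3.3 was fitted with a trended prior, two-sided, with Benjamini-Hochberg adjustment over all genes tested and a threshold of 0.05, and was tested on simulated data. Simulated shifts of 20 and 40 percentage points were recovered at 0% and 19% for TSA by SEACR and 2% and 39% by MACS2. For the antibody they were recovered at 0% and 25% by SEACR and 24% and 60% by MACS2. The other fits recovered 43% to 65% and 68% to 96%, so 0 calls for TSA or antibody say little. Descriptions used Python 3.11.15, pandas 2.3.3, numpy 2.4.6 and matplotlib 3.10.9. The mark and antibody fits used 8 and 6 benchmark libraries with antibody as the group, the TSA fit 8 libraries in 4 antibody pairs, and the PCR and extraction fits 16 or 20 libraries with antibody, cycles and extraction as terms.

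All 10 genes are named. Of the partner genes, those named are the first 2 in alphabetical order of each complex with H3K27ac in 6 of 6 libraries by both callers, and those with H3K27me3 in 2 of 2 by both callers or no H3K27ac SEACR peak. The genes and lists were chosen with earlier results of these data known. Replicate lists shared 0.0132% to 0.188% of peaks with identical bounds and were kept as separate replicates. Alternatives changed the filter, window, caller threshold, variance trend, value, replicate block and the libraries left out.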

Additional observations from a re-analysis of the deposited data

Results flagged for a closer look

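In 5 of 20 sets of 6 benchmark H3K27ac libraries looked at (10 genes, each by MACS2 and by SEACR), 1 library stood far from the other 5 in promoter coverage by Dixon's test. For independent normal values chance gives about 1 such set in 20. These values come in antibody pairs, with ties and values of 0%, so that rate does not apply and no excess follows. CREBBP was covered over 10.2% by SEACR in ab177178 replicate 1, where its second peak lay near the gene end, and EP300 over 4.42% by MACS2 in ab4729 replicate 1. KAT2B was covered over 25.0% by SEACR in ab4729 replicate 2, close below the others, and KAT7 over 0% in the same library. NCOA3 was covered over 22.4% by SEACR in ab4729 replicate 1. The 4 low values were all in the ab4729 libraries, which had 21317 and 29019 MACS2 peaks and 14457 and 10930 SEACR peaks for replicates 1 and 2. The part of list length in these values was not tested.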

How the results depend on the processing

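The list of genes higher in H3K27ac held 7 by MACS2 and 9 by SEACR, and numbered 7 to 8 and 7 to 9 with 1 library left out. It was shorter where fewer of the genes passed the filter: by MACS2 3 (of 4 tested) with 3 kb windows and 2 (of 2) over gene bodies, by SEACR 3 (of 3) over gene bodies and 5 (of 5) with the upper 50.0% of SEACR peaks by signal. KAT7 missed the threshold by SEACR as present or absent (limma adjusted p = 0.0519) and without single libraries (limma adjusted p from 0.0794 to 0.170), KAT5 without either CST 9733 library (0.0757 and 0.0758 by SEACR) and KAT8 at its outermost start alone (0.186). The antibody count by MACS2 was 0, and 0 to 1 with 1 library left out, the 1 being without ab4729 replicate 2. By SEACR it was 1, and 2 at the outermost start alone and 2 as present or absent. With the upper 50.0% of peaks it was 0, where 5 genes were tested and KAT2A was not. The strongest KAT2A peaks of ab177178 stood at the 44.4th and 43.3rd percentile of signal in their lists, so that setting dropped them. The cause of the other changes was not tested. KAT2A kept its SEACR call in each of 14 other fits, with limma adjusted p from 6.01e-09 to 0.0146. These fits reuse the same libraries, with KAT2A promoter peaks by SEACR in ab177178 alone. They are no independent support for that call. No other setting gave a called gene of the list for TSA, cycles, extraction, Active Motif or the mark at equal read number.

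Same-numbered replicate deviations correlated at 0.364 between ab4729 and Diagenode by MACS2, and at -0.043 to 0.067 in every other pair by either caller. Replicates of ab4729 and Diagenode may thus share a deviation by MACS2. With the replicate block the counts were 7 (MACS2) and 8 (SEACR) for the mark, where KAT7 was lost (limma adjusted p = 0.0666), and 0 and 1 for the antibody. Over all genes, counts of calls moved by more than 1.5 times for the antibody by MACS2 (133, other settings 0 to 1277), by SEACR with the block (1039 and 607), for TSA (0, but 1081 by SEACR at the outermost start alone, and 123 by SEACR and 163 by MACS2 as present or absent), for Active Motif (4, other settings 0 to 20) and for the mark at equal read number (3331, other settings 1555 to 6096).

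The lists give no reads, so a gene without a peak was under the caller's threshold at that depth, which differs between sets. Peaks over shared windows (KAT2A with DHX58 and HSPB9, KAT5 with RNASEH2C, KAT7 with FAM117A, KAT8 with PRSS8 and lncRNA genes) cannot be assigned to 1 gene. With 4 pairs the exact sign-flip test for TSA could not reach the threshold.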

Other observations

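In the 6 benchmark libraries KAT8 had the highest and CREBBP the lowest mean H3K27ac SEACR signal over all of their start windows together, with KAT5 close below KAT8. Over the 27 H3K27ac SEACR lists made without TSA, the genes whose signal ran most like that of KAT8 were LONP1 (Spearman's rho 0.83), SH3BP1 (0.83) and RHPN1 (0.80). KAT8 was above 0 in 17 of these lists, LONP1 in 16. For CREBBP, above 0 in 3 of the 27 lists, they were SRPK3 (0.83), SEMA6B (0.80) and AC127496.1 (0.77), which rests on those few lists. The lists share antibodies and depth, and these values are a description across lists with no test.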
